A study of Homo sapiens with 6 samples.

Results

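TXNIP, the 4 arrestin-domain genes ARRDC1, ARRDC2, ARRDC3 and ARRDC4, and the genes of the glucose-sensing transcription factors, MLXIP, MLXIPL and MLX, were followed in colorectal cancer cells with and without CNOT7 knockdown. The 8 genes were taken by gene symbol from the 58735 genes of the count table, and all 8 had enough counts to be tested. The group was selected on the rise of TXNIP and ARRDC4 with CNOT7 knockdown in these libraries, and the other genes were added as their relatives or regulators. Their own fold changes in this comparison are therefore given as a description, without p-values. Genes outside the 8 are given with p-values. The lists of such genes were also chosen with earlier results of these data known, which limits these p-values too.

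Alpha-arrestins are adaptor proteins that bring ubiquitin ligases of the NEDD4 family to membrane proteins and so direct which transporters and receptors are internalized. TXNIP, the thioredoxin-interacting protein, is an alpha-arrestin that also binds reduced thioredoxin, and TXNIP and ARRDC4 both limit glucose uptake. Transcription of these genes is driven by MondoA, the product of MLXIP, or by its relative ChREBP, the product of MLXIPL. Each of these factors pairs with MLX, is activated when glucose 6-phosphate accumulates, and binds carbohydrate response elements, which hold a pair of E-box-like sites. TXNIP is widely used as a readout of this glucose sensor.

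RNA was sequenced from 3 control libraries, labelled CNOT7 control, and 3 CNOT7 knockdown libraries of the line sw480, a human colorectal cancer line, with no treatment. The paper names HCT116, another colorectal cancer line, for its RNA sequencing, a conflict that does not touch which libraries are control or knockdown. The knockdown cells were a stable line made with a lentiviral short hairpin RNA. Which hairpin they carry, and whether the 3 libraries of a group came from separate cultures, is not given in the sources used here, so p-values measure only the spread between these libraries. Total counts were 23788451 to 25982493 in the control libraries and 27523812 to 29104872 in the knockdown libraries. CNOT7, the deadenylase subunit that was targeted, was at 169.1, 191.1 and 175.8 CPM (counts scaled to the TMM-normalized size of each library) in the control libraries and at 43.4, 47.2 and 38.6 CPM in the knockdown libraries. Of 9 colorectal epithelial markers, 7 were tested, and KRT20 and CDX1 had no more than 7 counts over the 6 libraries. VIL1 and CDH1 rose and KRT8 and KRT19 fell, 57.1% of those tested, against 25.2% of all tested genes. EPCAM (212.3 CPM in control and 220.3 CPM in knockdown libraries), KRT18 (2025 and 1978 CPM) and CDX2 (41.4 and 42.5 CPM) were not called. The 9 markers together summed to 5554 to 5972 CPM in control and 5132 to 5683 CPM in knockdown libraries. The calls of KRT8 and KRT19 were both lost without control replicate 1 or 3 or knockdown replicate 1 or 2, where the adjusted p was 0.0505 to 0.156, and with upper-quartile factors or cyclic loess offsets (0.0719 to 0.447). That of KRT8 was also lost with at least 10 counts in every library (adjusted p = 0.0563). Markers of immune, stromal and endothelial cells summed to 9.72 to 12.1 CPM in control and 12.7 to 13.6 CPM in knockdown libraries, and PTPRC had 4 counts and CD68 3 counts in all. In such bulk libraries, fewer cells with a transcript and less of it per cell cannot be told apart.

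The promoters show what the genes share in sequence. The RefSeq promoter table (GRCh38.p14) gave 11 promoters for the 8 genes, each from 250 bases before to 50 bases after an annotated start, and 35116 promoters in all. Both strands were searched for CACGTG, the E-box, for a degenerate carbohydrate response element, CACGNG and CNCGNG with 5 bases between them, and for CCAAT, the box bound by NF-Y. The carbohydrate response element pattern is shown for TXNIP because this was the only one of the 8 genes with a match, and the E-box is shown for ARRDC4 and MLX for the same reason. Capitals mark the matched bases, and each sequence reads 5′ to 3′ in the direction of its gene.
TXNIP, chr1:145996644-145996673, reverse strand: gatgtgCACGAGGGCAGCACGAGcctccgg
ARRDC4, chr15:97960481-97960510, forward strand: aaacggcctgtgCACGTGcacgccggagcc
MLX, chr17:42567038-42567067, forward strand: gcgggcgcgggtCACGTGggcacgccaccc

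The TXNIP match lay 88 to 72 bases before the start. The pattern occurred in 0.501% of all promoters, 176 of 35116. The E-box, at positions -210 to -205 from the start of ARRDC4 and -50 to -45 from that of MLX, occurred in 7.26% of all promoters. The pattern can include an E-box, but the TXNIP match holds no CACGTG. The promoter of MLXIPL held none of the 3 motifs. CCAAT was found in 7 of the 11 promoters (63.6%), against 34.6% of all promoters, with 2 boxes in TXNIP and 3 in ARRDC4. Those of TXNIP and the box nearest the start of ARRDC4 are shown because these genes changed most.
TXNIP, chr1:145996702-145996731, box on the opposite strand to the gene: gcgatctcactgATTGGtcgggctcctggt
TXNIP, chr1:145996667-145996696, box on the strand of the gene: aggaccgggcagCCAATgggagggatgtgc
ARRDC4, chr15:97960624-97960653, box on the strand of the gene: gctcgcagctgaCCAATggccgcccgccgg

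**Figure D1:**
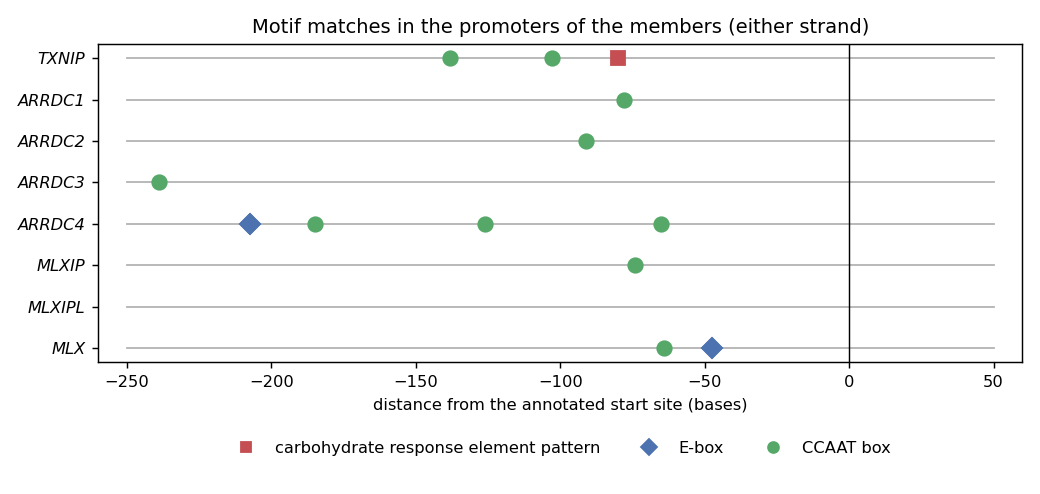
Position of the motif matches, in bases from the annotated start (x axis, 0 at the start), in the promoters of the 8 genes (rows), with squares for the carbohydrate response element pattern, diamonds for the E-box and circles for the CCAAT box. For genes with more than 1 annotated start, matches are drawn relative to their own start. TXNIP alone has a square, 88 to 72 bases before the start, and 2 CCAAT boxes lie further upstream.

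Matches of these letters are descriptions and not sites of binding. Over the other protein-coding genes that were tested, 11012 of 13675 (80.5%) had a promoter in the table. Their median log2 fold change with CNOT7 knockdown was -0.01, and 28.4% of them were called. The 112 genes with the carbohydrate response element pattern had a median of -0.08, with 10 higher and 28 lower, and 33.9% called. The 4697 genes with CCAAT had a median of -0.02, with 632 higher and 719 lower. TXNIP itself is not among the 112.

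TXNIP (ENSG00000265972, chromosome 1, 145992435 to 145996600, reverse strand, GRCh38) was the most abundant of the 8 genes and had the largest fold change among them. It was at 135.1, 140.9 and 135.4 CPM in control replicates 1, 2 and 3 and at 404.2, 433.1 and 404.3 CPM in knockdown replicates 1, 2 and 3. Every knockdown library was far above every control library. The means were 137.2 ± 3.28 CPM (SD, n = 3) and 413.9 ± 16.7 CPM (SD, n = 3), a ratio of 3.02 and a log2 fold change of 1.59 (standard error 0.0531). Among the 17574 genes tested, 146 had a larger log2 fold change. By level per gene length, 1063 tested genes were above TXNIP in the control libraries and 217 in the knockdown libraries. TXNIP made up 34.6% of the summed CPM of the 8 genes in the control libraries and 60.1% in the knockdown libraries.

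ARRDC4 (ENSG00000140450, chromosome 15, 97960698 to 97973838, forward strand) is the alpha-arrestin most often found to respond to glucose together with TXNIP. It was at 13.4, 14.4 and 16.2 CPM in the control libraries and at 25.7, 27.4 and 25.1 CPM in the knockdown libraries. As for TXNIP, the groups lay apart and knockdown replicate 2 was the highest library. The ratio of the means was 1.78 and the log2 fold change 0.83 (standard error 0.0901), smaller than those of TXNIP.

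ARRDC3 (ENSG00000113369, chromosome 5, 91368724 to 91383359, reverse strand), which directs the beta-2 adrenergic receptor and integrin beta-4 to degradation, moved little. Its control libraries were at 27.2, 27.1 and 26.9 CPM and its knockdown libraries at 30.7, 35.3 and 29.3 CPM. The groups did not overlap, but the knockdown group was spread more widely and knockdown replicate 2 stood above the other two. The log2 fold change was 0.23 (standard error 0.0808), and 0.145 without knockdown replicate 2.

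ARRDC1 (ENSG00000197070, chromosome 9, 137605654 to 137615360, forward strand), which drives the budding of small vesicles from the plasma membrane, was the second most abundant arrestin-domain gene of the 8. It was at 51.8, 43.2 and 44.1 CPM in the control libraries and at 50.3, 42.1 and 49.7 CPM in the knockdown libraries, and the groups overlapped. ARRDC2 (ENSG00000105643, chromosome 19, 18001132 to 18014102, forward strand) was at 22.8, 21.9 and 23.5 CPM in control and at 25.2, 20.95 and 24.8 CPM in knockdown libraries, and its groups overlapped as well. The log2 fold changes were 0.03 (standard error 0.0842) for ARRDC1 and 0.06 (standard error 0.0866) for ARRDC2. ARRDC5, the remaining human alpha-arrestin gene, had 4 counts over all 6 libraries and was not tested.

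The sensor genes themselves went in different directions. MLXIP (ENSG00000175727, chromosome 12, 122078722 to 122147347, forward strand), which encodes MondoA, was at 100.5, 99.1 and 98.5 CPM in control and at 97.6, 92.2 and 97.4 CPM in knockdown libraries. The groups lay just apart, and the log2 fold change was -0.05, with a standard error of 0.0555. MLXIPL (ENSG00000009950, chromosome 7, 73593194 to 73624543, reverse strand), which encodes ChREBP, was at 16.6, 13.8 and 14.8 CPM in control and at 22.5, 21.2 and 22.7 CPM in knockdown libraries. All knockdown libraries were above all control libraries, the ratio of the means was 1.47, and the log2 fold change was 0.55 with a standard error of 0.0899. Gene counts do not separate the ChREBP isoforms. MLX (ENSG00000108788, chromosome 17, 42567068 to 42573239, forward strand), the common partner, was at 32.3, 33.1 and 35.7 CPM in control and at 26.2, 28.1 and 30.3 CPM in knockdown libraries. Here all knockdown libraries were below all control libraries, and the log2 fold change was -0.26, with a standard error of 0.0780.

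**Figure D2:**
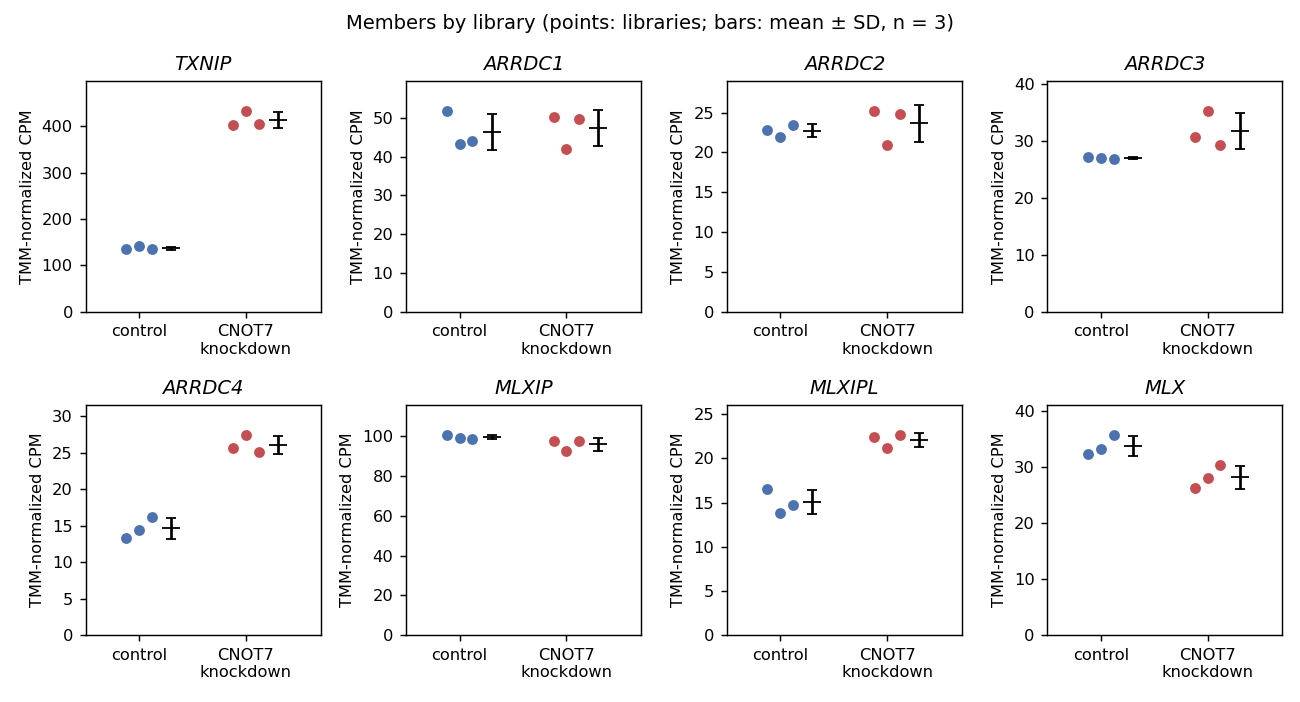
Normalized CPM (y axes, each from 0) of the 8 genes in the 3 control (blue) and 3 CNOT7 knockdown (red) libraries, with the mean and SD of each group beside the points. TXNIP, ARRDC3, ARRDC4 and MLXIPL were higher in every knockdown library, MLXIP and MLX were lower in each, and ARRDC1 and ARRDC2 overlapped.

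The side of the threshold on which the 8 genes fell in the fit over all genes is given as a description only. Of the 8 genes, 4 (TXNIP, ARRDC3, ARRDC4 and MLXIPL) were past it and higher, and 1 (MLX) was past it and lower. Among all genes tested, 25.2% were called, 13.3% as higher and 11.9% as lower, and upper-quartile scaling shifted this split from 2329 higher and 2095 lower to 2809 higher and 1539 lower. Since the genes were chosen with these fold changes known, nothing is read from the share of the 8. Just inside the threshold lay ARRDC3, which fell outside it in 8 of 13 alternatives, among them the omission of any control library or of knockdown replicate 1 or 2 (log2 fold change 0.145 to 0.24). MLX fell outside without control replicate 3 (-0.22) or knockdown replicate 1 (-0.22). The nearest of the 3 genes outside it was MLXIP, which was not past it in any alternative. TXNIP, ARRDC4 and MLXIPL kept their places in all 13 alternatives, with log2 fold changes of 1.56 to 1.66, 0.77 to 0.91 and 0.49 to 0.63. In 6 of the 8 genes the groups did not overlap, 4 with the knockdown higher and 2 with it lower. Among all genes tested this held for 38.8%, of which the knockdown was higher for 20.6% and lower for 18.2% of the genes tested.

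**Figure D3:**
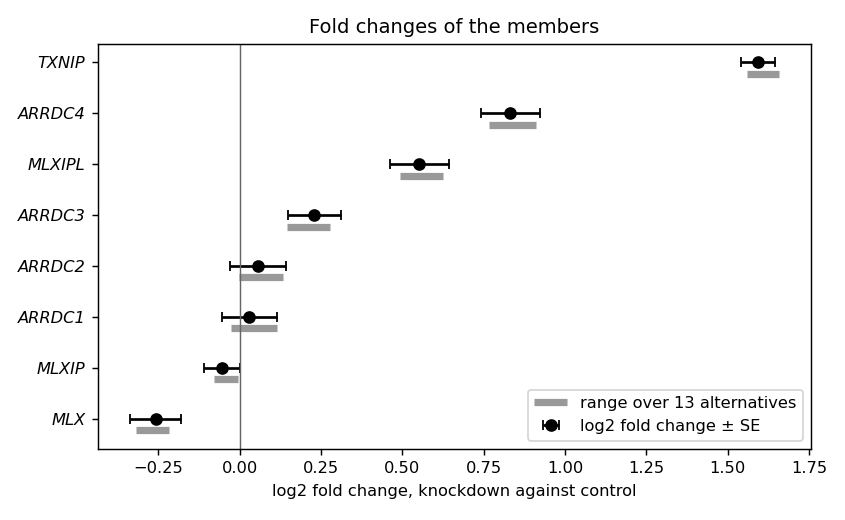
Log2 fold change of the 8 genes, CNOT7 knockdown against control (x axis), with the standard error (black) and the range over 13 alternative analyses (grey). TXNIP, at 1.59, ARRDC4, MLXIPL and ARRDC3 (0.145 to 0.279) lie to the right of 0 over their whole ranges. MLX and MLXIP (-0.079 to -0.005) lie to the left, whereas ARRDC1 and ARRDC2 have ranges that include 0.

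Levels were compared between genes as CPM per kilobase of gene length. In the control libraries the order was TXNIP (37.8 ± 0.904, SD, n = 3), ARRDC1 (12.1 ± 1.23), MLX (7.92 ± 0.415), MLXIP (7.15 ± 0.0744), ARRDC3 (5.49 ± 0.0282), ARRDC2 (4.91 ± 0.166), ARRDC4 (3.59 ± 0.355) and MLXIPL (3.13 ± 0.289). Each gene was above the next in every library except for ARRDC4 and MLXIPL, whose ranges overlapped. In the knockdown libraries TXNIP (114.2 ± 4.60) and ARRDC1 (12.39 ± 1.199) still led. MLXIP, MLX, ARRDC3 and ARRDC4 followed at means of 6.88, 6.62, 6.44 and 6.40 CPM per kilobase, and each overlapped with its neighbour in this order. ARRDC4 thus moved from below ARRDC2 to above it, and the ranges of ARRDC4 (6.16 to 6.74) and ARRDC2 (4.52 to 5.43) lay apart. The length used is that of all annotated exons, 13905 bases for MLXIP and 3625 for TXNIP, so a gene with long unused exons is placed too low. Without division by length, MLXIP was second at 99.36 ± 1.035 CPM in the control libraries.

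**Figure D4:**
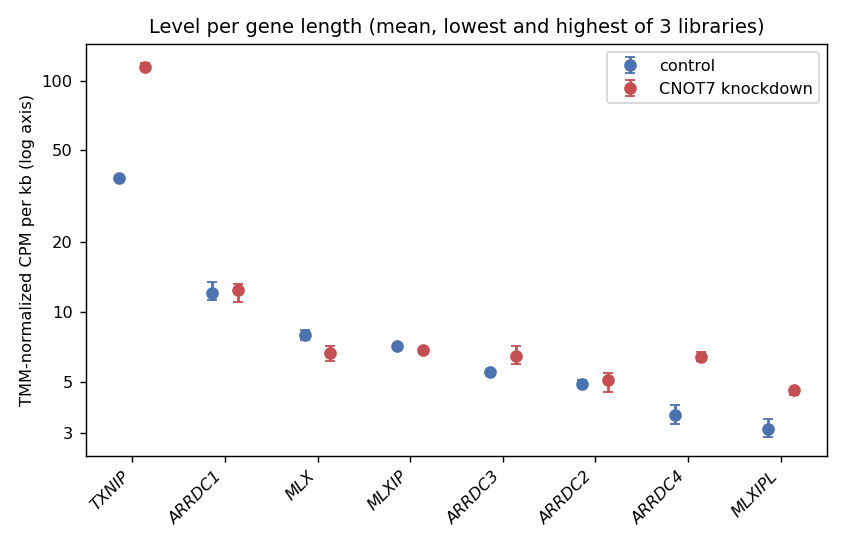
Level of the 8 genes in normalized CPM per kilobase of gene length (y axis, logarithmic), with the mean, lowest and highest of 3 control (blue) and 3 CNOT7 knockdown (red) libraries, ordered by the control mean. TXNIP is at 37.8 in control and 114.2 in knockdown libraries, and ARRDC4 moves from the lower end to beside ARRDC3.

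Overlapping genes could affect the counts of some of these genes, since the strand setting of the counting is not stated. TXNIP, ARRDC4, MLXIP and MLXIPL shared no exonic base with another annotated gene. MLX shared 18.1% of its exonic bases with PSMC3IP, which lies on the opposite strand and also fell, from 9.81 to 7.23 CPM (log2 fold change -0.44, standard error 0.111, adjusted p = 0.0075), and the part of this overlap in the result for MLX was not tested. ARRDC1 shared 0.759% with ARRDC1-AS1 and 4.79% with AL590627.2, which had 1 count in all. ARRDC3 shared 2.94% with ARRDC3-AS1, and ARRDC2 9.53% with AC020904.3, which had no counts. ARRDC1-AS1 was at 10.5 CPM in control and 10.3 CPM in knockdown libraries, and ARRDC3-AS1 at 0.742 and 0.503 CPM, neither past the threshold. AC005089.1, within an intron of MLXIPL, had 52 counts in all and was not tested.

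Of the nearest tested genes on each side of TXNIP and ARRDC4, 1 passed the threshold, and in the opposite direction. For POLR3GL, an RNA polymerase III subunit gene 13586 bases from TXNIP, the fit gave 0.32 on the log2 scale (standard error 0.115, adjusted p = 0.0519), and for LINC01719 on the other side -0.17 (adjusted p = 0.668). Beside ARRDC4, LINC02251 was at -0.345 (standard error 0.330, adjusted p = 0.492). NR2F2, a nuclear receptor gene 1620434 bases away, fell by 0.50 on the log2 scale (log2 fold change -0.50, standard error 0.0653, adjusted p = 2.59e-05).

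Since CNOT7 removes poly(A) tails, the 3′ untranslated regions were searched for ATTTA, the core of AU-rich elements, which shorten the life of many transcripts. In 1 annotated transcript per gene, ARRDC3 and ARRDC4 had 7 copies each, MLXIP 3, MLX 2, TXNIP 1 and ARRDC1, ARRDC2 and MLXIPL 0, against a median of 2 over 13489 tested genes. The region was 1416 bases long in TXNIP and 2651 bases in ARRDC4, against a median of 1061. Whether these copies bear on the fold changes was not tested.

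Lists of genes around the sensor were tested in the same fit, each gene with its p-value adjusted over all 17574 genes. Among all tested genes 25.2% were called, 13.3% as higher and 11.9% as lower, and the median log2 fold change was 0.004. The share called was 30.8% for the transporters, 33.3% for the glucose 6-phosphate enzymes and 37.5% for the ChREBP and MondoA targets. It was 9.09% for the thioredoxin system and 33.3% for AMPK. It was 30% for the MYC network, counting MYCN, which passed the filter on low counts only through its knockdown libraries. For the NEDD4 family ligases and the factors of the TXNIP promoter it was 37.5% each. No list was tested against the share of all genes.

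Glucose enters through transporters of the SLC2A and SLC5A families. Of 15 genes listed by membership in these families, whatever sugar or other substrate they carry, 13 were tested. Of these 2 rose, 2 fell and 9 did not pass (median log2 fold change 0.15). SLC2A1, the transporter of basal glucose uptake in most cells, was at 1654 ± 54.8 CPM (SD, n = 3) in control and 1681 ± 59.8 CPM in knockdown libraries (log2 fold change 0.02, standard error 0.0468, adjusted p = 0.766). SLC2A3, the high-affinity transporter, fell from 1439, 1485 and 1469 CPM to 1023, 1038 and 1019 CPM (log2 fold change -0.51, standard error 0.0441, adjusted p = 2.17e-07). SLC2A14, a near-identical copy of SLC2A3 that could share reads with it, was at 5.25 ± 1.56 and 3.98 ± 0.542 CPM. SLC2A6, a lysosomal family member, fell by 0.37 on the log2 scale (log2 fold change -0.37, adjusted p = 0.00324). SLC5A1, the sodium-coupled transporter of the intestinal brush border, rose from 0.584, 0.559 and 0.599 CPM to 4.97, 4.28 and 3.86 CPM (log2 fold change 2.90, standard error 0.220, adjusted p = 4.65e-08). It stayed far less abundant than SLC2A1 or SLC2A3. SLC2A4, the insulin-responsive transporter, rose from 2.573 ± 0.227 to 5.001 ± 0.937 CPM (log2 fold change 0.96, adjusted p = 5.74e-04).

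The list of glucose 6-phosphate enzymes came next, named for the signal that MondoA senses. It also holds genes of enzymes that act on fructose 6-phosphate, among them PFKM and GFPT2, and the regulator gene GCKR. Of 18 listed genes 15 were tested, 5 rose, 0 fell and 10 did not pass in edgeR's quasi-likelihood test (median log2 fold change 0.02). Among these, 1 was lower at an unadjusted p under 0.05, and DESeq2 called 4 higher and 0 lower. HK2, an inducible hexokinase, rose from 86.9, 85.1 and 87.8 CPM to 108.8, 98.4 and 107.7 CPM (log2 fold change 0.28, standard error 0.0587, adjusted p = 0.00209). HK1, the constitutive hexokinase, was at 192.6 ± 6.498 and 195.8 ± 4.17 CPM (adjusted p = 0.792). GFPT2, which diverts fructose 6-phosphate into hexosamine synthesis, rose from 14.98, 15.65 and 15.32 CPM to 23.95, 23.59 and 24.14 CPM (log2 fold change 0.64, standard error 0.0805, adjusted p = 1.59e-05). H6PD, which oxidizes glucose 6-phosphate in the endoplasmic reticulum, rose by a log2 fold change of 0.29 (adjusted p = 0.00257). HKDC1, a further hexokinase gene, went from 0.768 to 1.47 CPM (log2 fold change 0.92, adjusted p = 0.0210). Its call was lost without control replicate 2 or 3 or knockdown replicate 1 (adjusted p 0.0518 to 0.107), with DESeq2 (adjusted p = 0.0779) and with cyclic loess offsets (adjusted p = 0.0578). PFKM, a phosphofructokinase gene named after its values were seen, had a log2 fold change of 0.21 (adjusted p = 0.0239), and lost the call without control replicate 2 or 3 or knockdown replicate 1 or 3 (adjusted p 0.0756 to 0.1247).

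Other known targets of ChREBP and MondoA moved in both directions. Of 19 listed genes 16 were tested, 2 rose, 4 fell and 10 did not pass (median log2 fold change 0.12). The balance turned with upper-quartile factors, to 4 higher and 3 lower, and with the replicate term, to 5 higher and 4 lower, and was 3 and 3 without control replicate 1. HBP1, an HMG-box repressor of the cell cycle, rose from 48.5, 56.3 and 51.4 CPM to 68.0, 73.5 and 70.9 CPM (log2 fold change 0.44, standard error 0.0678, adjusted p = 1.19e-04). KLF10, a TGF-beta-inducible zinc-finger gene, rose from 69.1 ± 0.476 to 82.8 ± 6.83 CPM (log2 fold change 0.26, adjusted p = 0.00697). SCD, the stearoyl-CoA desaturase, fell from 569.9, 586.3 and 579.1 CPM to 410.8, 408.6 and 395.2 CPM (log2 fold change -0.52, standard error 0.0473, adjusted p = 5.03e-07). FASN, the fatty acid synthase, fell from 546.8 ± 39.6 to 422.0 ± 36.6 CPM (log2 fold change -0.37, adjusted p = 4.14e-04). ACLY, which supplies cytosolic acetyl-CoA and is named here after its values were seen, fell from 312.2 ± 9.02 to 265.1 ± 10.4 CPM (log2 fold change -0.24, adjusted p = 0.00282). PNPLA3, a lipid droplet gene, had a log2 fold change of -0.30 (adjusted p = 0.0422), a call lost without control replicate 1 or 2 or knockdown replicate 1 or 2 (adjusted p 0.0516 to 0.185), with DESeq2 (adjusted p = 0.0690) and with upper-quartile factors (adjusted p = 0.0756).

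**Figure D5:**
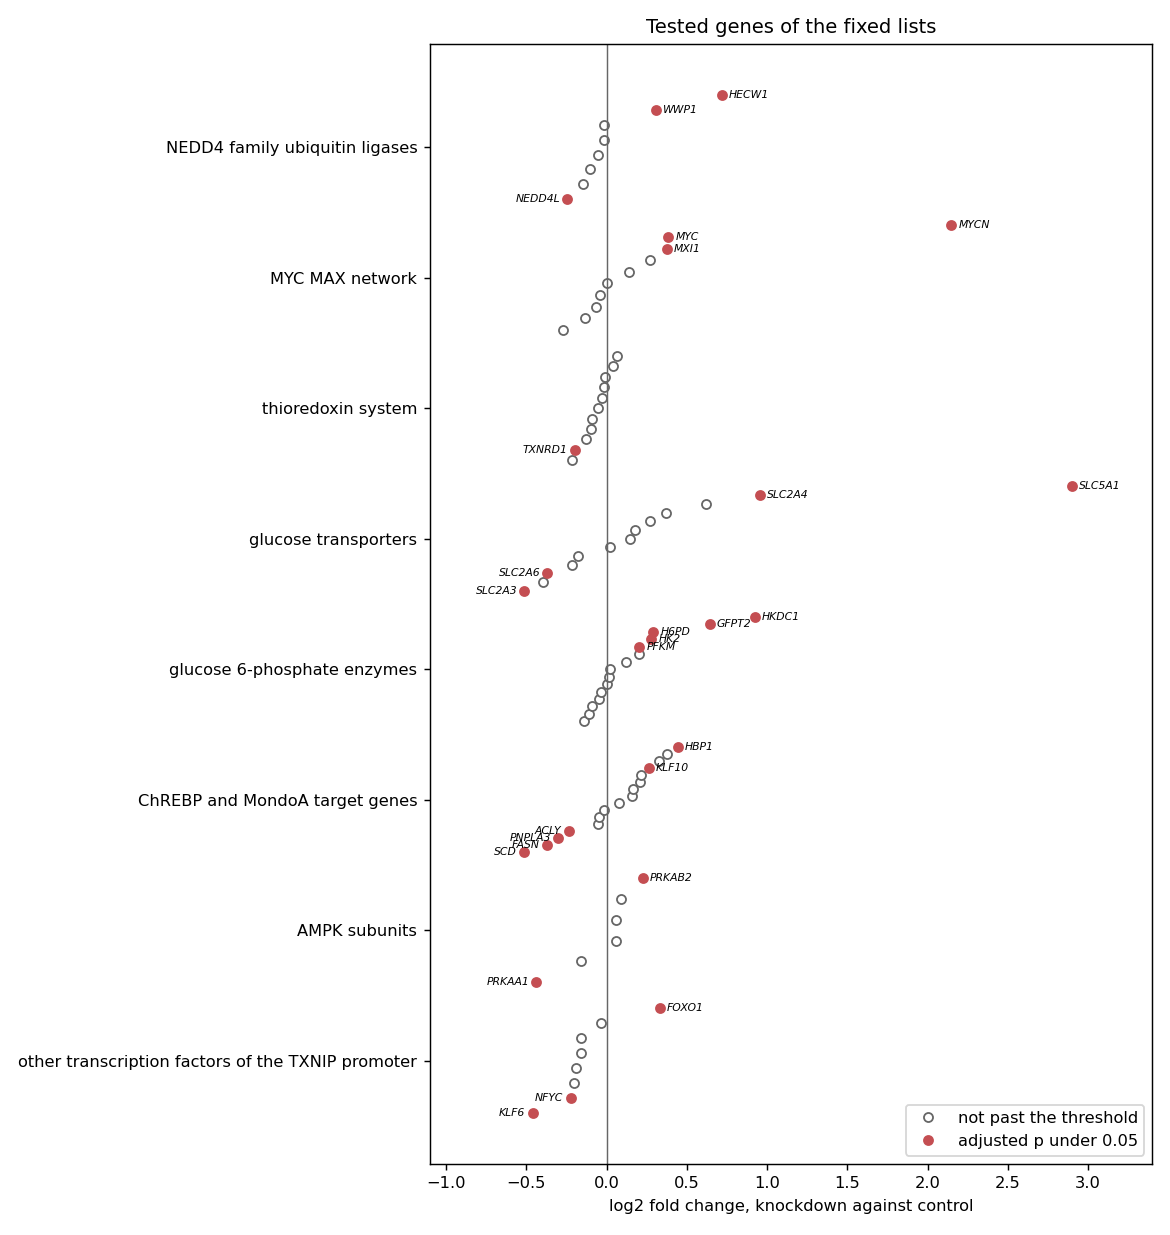
Log2 fold change, CNOT7 knockdown against control (x axis), of the tested genes of 8 fixed lists (rows), with filled red points for an adjusted p under 0.05 and open points for the rest. SLC5A1 at 2.90 and MYCN at 2.15 lie furthest right, and SCD at -0.52 and SLC2A3 at -0.51 furthest left among the called genes. MYCN passed the filter on low counts only through its knockdown libraries, so its call is not read as a result.

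MondoA and MLX belong to the extended MYC network, whose members compete for E-boxes. Of 10 genes tested 3 rose, 0 fell and 7 did not pass in edgeR's quasi-likelihood test (median log2 fold change 0.07). At an unadjusted p under 0.05, 1 gene was lower, and DESeq2 called 3 higher and 0 lower. With RLE factors, cyclic loess offsets, no filter on low counts or the replicate term, 1 gene was called lower. The same held without knockdown replicate 3. MYC rose from 255.1, 244.8 and 246.3 CPM to 313.0, 328.6 and 332.8 CPM (log2 fold change 0.39, standard error 0.0506, adjusted p = 2.52e-05). MXI1, a MAX partner that opposes MYC, rose from 41.7 ± 2.98 to 54.1 ± 1.23 CPM (log2 fold change 0.37, adjusted p = 6.60e-04). MYCN, also among the 3, went from a mean of 0.218 to 0.979 CPM (log2 fold change 2.15, standard error 0.444). Its counts were 6, 7 and 3 in control and 25, 38 and 20 in knockdown libraries. It passed the filter on low counts only through the knockdown libraries, where it is high. Its p-value is therefore not given and its call is not read as a result. With at least 10 counts required in every library, MYCN was not tested. MAX itself was at 36.2 ± 1.05 and 34.6 ± 0.930 CPM (adjusted p = 0.530).

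TXNIP protein acts through thioredoxin and through ubiquitin ligases. In the thioredoxin system, which reduces disulfides and peroxides, 0 of 11 tested genes rose and 1 fell in edgeR's quasi-likelihood test (median log2 fold change -0.05). No gene was higher at an unadjusted p under 0.05 either, and DESeq2 called 0 higher and 1 lower. Without knockdown replicate 3, 2 genes were called. TXN, the thioredoxin that TXNIP binds, was at 250.8 ± 11.99 and 241.9 ± 12.09 CPM (log2 fold change -0.05, adjusted p = 0.547). TXNRD1, the cytosolic thioredoxin reductase, fell from 301.5, 309.5 and 303.3 CPM to 259.3, 270.3 and 267.8 CPM (log2 fold change -0.20, standard error 0.0491, adjusted p = 0.00665). Of 9 NEDD4 family ligases, 8 were tested, 2 rose and 1 fell (median log2 fold change -0.04). WWP1 rose from 63.2 ± 1.88 to 78.1 ± 4.16 CPM (log2 fold change 0.31, adjusted p = 0.00154). NEDD4L, known for its action on the epithelial sodium channel, fell from 87.9 ± 2.03 to 74.1 ± 2.99 CPM (log2 fold change -0.25, adjusted p = 0.00505). HECW1 rose from 2.21 to 3.64 CPM (log2 fold change 0.72, adjusted p = 0.00957), a call lost without control replicate 3 (log2 fold change 0.57, adjusted p = 0.0617). Of the 5 other arrestin genes 3 were tested, and ARRB2, a beta-arrestin of receptor desensitization, rose from 62.4 ± 2.16 to 76.1 ± 1.999 CPM (log2 fold change 0.29, adjusted p = 0.0019).

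AMPK phosphorylates TXNIP and marks it for degradation. Of 6 tested subunit genes 1 rose and 1 fell (median log2 fold change 0.06). PRKAA1, a catalytic subunit gene, fell from 110.9, 128.9 and 112.3 CPM to 85.6, 93.9 and 80.4 CPM (log2 fold change -0.44, standard error 0.0707, adjusted p = 2.00e-04). PRKAB2, a scaffold subunit gene, had a log2 fold change of 0.22 (adjusted p = 0.0317), a call lost without control replicate 1 or 3 or knockdown replicate 1 or 2 (adjusted p 0.0889 to 0.138) and with no filter on low counts (adjusted p = 0.0604). Among 8 genes of other factors that act on the TXNIP promoter, 1 rose and 2 fell (median log2 fold change -0.18). FOXO1, a forkhead factor restrained by insulin signalling, rose from 39.1 ± 4.19 to 49.2 ± 4.77 CPM (log2 fold change 0.33, adjusted p = 0.00847), a call lost without control replicate 3 (adjusted p = 0.0577). KLF6, a zinc-finger factor, fell from 86.2, 92.2 and 96.2 CPM to 65.3, 70.3 and 63.9 CPM (log2 fold change -0.46, standard error 0.0634, adjusted p = 4.04e-05). NFYC, a subunit of the CCAAT-binding factor NF-Y, had a log2 fold change of -0.22 (adjusted p = 0.0414), a call lost on leaving out any 1 control replicate or knockdown replicate 1 or 3 (adjusted p 0.0526 to 0.163), with upper-quartile factors (adjusted p = 0.0938) and with cyclic loess offsets (adjusted p = 0.0668). Without control replicate 3 only 1 gene of this list was called, and without knockdown replicate 2, 5 were. Of the 5 genes of the NLRP3 inflammasome, which TXNIP can bind, 2 were tested and 0 were called by edgeR's quasi-likelihood test or by DESeq2, and 1 had an unadjusted p under 0.05. Without knockdown replicate 2, 1 of them was called. The 5 genes summed to 9.94 to 10.5 CPM in control and 11.3 to 12.4 CPM in knockdown libraries, nearly all of it PYCARD.

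The genes with a pattern most like that of TXNIP were sought by the correlation of log2 CPM over the 6 libraries. The 5 highest were SYTL2 (0.9998), LRRC55 (0.9997), KCNJ10 (0.9994), ABCB1 (0.9994) and ETS2 (0.9988). Their log2 fold changes were 1.06, 1.08, 2.97, 2.08 and 0.68. The difference between the groups sets such values, and 870 tested genes had a correlation above 0.95 with TXNIP.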

How the data were processed

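The authors deposited raw counts per gene for 6 libraries, 3 control and 3 CNOT7 knockdown, with a gene length in bases. The submitters' processing notes name GRCh38, CASAVA 1.8, fastp, HISAT2 2.0.5, featureCounts 1.5.0-p3 and DESeq2 1.20.0, without settings. Positions of all 8 genes matched GENCODE release 29. With edgeR 4.0.16 in R 4.3.3, filterByExpr kept 17574 of 58735 genes, TMM factors were used, and the quasi-likelihood test (glmQLFit and glmQLFTest) compared the groups without a replicate term. Benjamini-Hochberg adjustment ran over all tested genes, and an adjusted p under 0.05 was a call at any fold size. Standard errors were obtained as |log2 fold change|/sqrt(F). CPM are TMM-normalized.

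The 8 genes and all lists were chosen with earlier results of these data known. Named in the text are the 8 genes, CNOT7, genes that overlap them, the nearest tested genes beside TXNIP and ARRDC4, the 5 genes most correlated with TXNIP, MYC, MAX, TXN, SLC2A1, HK1 and HK2, and up to 3 genes per list and direction with the largest log2 fold change among called genes whose groups did not overlap. Any other gene was named after its values were seen. Alternatives were DESeq2 1.42.0, RLE and upper-quartile factors, cyclic loess offsets (limma 3.58.1), no filter, a minimum of 10 counts per library, omission of each library in turn, and a term for the replicate number. The steps were tested on simulated data. Replicates of a group differed by more than sampling noise. Promoters were joined by gene symbol or Ensembl identifier. Motifs, annotation and plots were handled in Python 3.11.15 with pandas 2.3.3 and matplotlib 3.10.9.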

Additional observations from a re-analysis of the deposited data

How the results depend on the processing

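The direction of TXNIP, ARRDC3, ARRDC4, MLXIPL, MLXIP and MLX was the same under all 13 alternatives, while that of ARRDC1 and ARRDC2 changed sign when 1 library was left out (-0.026 to 0.116 and -0.003 to 0.134). Cyclic loess offsets moved the log2 fold change of TXNIP to 1.66 and that of MLXIP to -0.005, and upper-quartile factors moved MLXIP to -0.013. With the replicate term, 6508 genes were called in place of 4424, and with DESeq2 3857. The replicate block, with its pairing by number, raised the number called to 5 in the MYC network, 3 in the thioredoxin system, 8 among the glucose 6-phosphate enzymes, 7 among factors of the TXNIP promoter and 2 among markers of other cell types. The deviations of same-numbered libraries correlated at 0.165, 0.526 and 0.049, and control replicate 1 correlated better with knockdown replicate 3 (0.443), so the numbers were not taken as pairs. Other settings moved small counts: colorectal epithelial markers to 2 under upper-quartile factors and cyclic loess, markers of other cell types to 0 with DESeq2, cyclic loess or at least 10 counts and to 2 with no filter, and AMPK subunits to 1 with no filter. With 1 library left out, the number called ranged from 3030 to 4542 over all genes, from 3 to 5 for glucose 6-phosphate enzymes, 1 to 2 for AMPK subunits, 1 to 5 for factors of the TXNIP promoter, 2 to 4 for epithelial markers, 0 to 1 for markers of other cell types, 0 to 1 for the inflammasome and 1 to 2 for the thioredoxin system. The cause was not tested, except that fewer genes or libraries enter by construction. With CACGTG required at both ends of the carbohydrate response element, 0 of the 8 genes had a promoter match in place of 1. Without division by length, 3 of the 8 genes kept their place in the control order. Depth limits SLC5A1, MYCN and HKDC1, which were near or under 1 CPM in the control libraries.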
